A study of Rattus norvegicus with 10 samples.

Results

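The insulin-like growth factor (IGF) system was followed through 10 genes of the rat supraoptic nucleus: the ligand genes Igf1 and Igf2, the receptor genes Igf1r and Igf2r, and the binding protein genes Igfbp2 to Igfbp7. Members were found by their symbol among the 32402 genes listed, and each symbol matched 1 Ensembl identifier. The family was taken up because Igfbp5 was strongly lower after dehydration in these same data, so the values of Igfbp5 are given as a description with no test, and the other 9 members entered by family name. The dehydrated group was 5 samples from Wistar Han rats left without drinking water for 72 h, and the euhydrated group was 5 samples from Wistar Han rats that could drink freely. Cages were allotted to the groups at random, and a 1 mm corer took both supraoptic nuclei from 12 slices of each frozen brain, per the labels' protocols. The sources used here state neither sex nor age nor how many animals stand behind a sample. The p-values therefore cover only the spread from sample to sample, part of which may be technical. Polyadenylated RNA was sequenced from stranded libraries.

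IGF1 and IGF2 are small secreted proteins related to insulin. Both signal through the IGF1 receptor, a tyrosine kinase that recruits the adaptors IRS and SHC and activates phosphatidylinositol 3-kinase (PI3K), AKT and mTOR, while the IGF2 receptor (also the cation-independent mannose 6-phosphate receptor) carries IGF2 and lysosomal enzymes to lysosomes. IGF binding proteins hold the ligands in the extracellular space, where they can limit or prolong access to the receptor, and they are cleaved by proteases such as PAPP-A and HTRA1. IGFBP7 binds IGFs only weakly. The supraoptic nucleus holds the magnocellular neurones that make vasopressin and oxytocin, together with astrocytes, vessels and the pial surface beneath it.

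All 10 members had a promoter window in RefSeq (build GRCr8), covering 250 bases before to 50 bases after the gene start, and Igf2 had 2. The windows of Igfbp5 and Igfbp3 are shown because these 2 binding proteins had the largest differences between the groups, in opposite directions, and that of Igf2r because it is the receptor that rose and the only member window with a motif found more than once. Each is read 5′ to 3′ on the strand of its gene, and capitals mark the E-box CACGTG.
Igfbp5 promoter, chr9:81914138-81914437, minus strand: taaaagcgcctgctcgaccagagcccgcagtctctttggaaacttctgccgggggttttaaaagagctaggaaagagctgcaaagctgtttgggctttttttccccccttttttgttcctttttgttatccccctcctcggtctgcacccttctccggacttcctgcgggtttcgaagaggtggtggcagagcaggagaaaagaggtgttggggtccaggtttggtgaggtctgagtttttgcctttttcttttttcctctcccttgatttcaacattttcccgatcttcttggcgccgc
Igfbp3 promoter, chr14:86277895-86278194, minus strand: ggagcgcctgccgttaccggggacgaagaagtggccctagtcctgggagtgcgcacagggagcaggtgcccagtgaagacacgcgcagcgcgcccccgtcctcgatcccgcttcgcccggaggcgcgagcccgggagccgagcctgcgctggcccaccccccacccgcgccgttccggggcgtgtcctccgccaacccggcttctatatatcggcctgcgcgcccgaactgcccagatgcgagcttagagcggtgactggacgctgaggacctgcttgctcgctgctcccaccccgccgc
Igf2r promoter, chr1:50526628-50526927, plus strand: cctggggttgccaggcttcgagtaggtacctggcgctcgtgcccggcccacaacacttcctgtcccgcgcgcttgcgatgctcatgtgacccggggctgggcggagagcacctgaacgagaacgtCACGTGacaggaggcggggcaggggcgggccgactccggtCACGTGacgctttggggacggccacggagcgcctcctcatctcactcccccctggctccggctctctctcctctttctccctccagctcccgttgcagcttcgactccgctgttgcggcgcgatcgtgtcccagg
The Igfbp5 window was 50.7% G and C with 11 CpG pairs, and the Igfbp3 window 71.7% with 36, against a median of 51.7% over 33469 promoters. The windows were searched on both strands for 7 motifs: the TATA box TATAAA, the cAMP response element TGACGTCA, the AP-1 site TGANTCA, the E-box CACGTG, the FOXO site GTAAACA, the glucocorticoid response element and the amino acid response (CARE) site TGATGNAA. None of the letters searched occurred in the windows of Igfbp5, Igfbp3, Igf1, Igf2 or Igfbp7. The E-box occurred in Igf2r, from base 126 and from base 166 of its window, and once each in Igf1r and Igfbp2, and 6.42% of all promoters held it. Igfbp4 held the TATA box, found in 14.2% of all promoters, and Igfbp6 the FOXO site, found in 3.78%. In the same assembly Igfbp2 and Igfbp5 are next to each other on chromosome 9, and Igfbp3 is next to Igfbp1 on chromosome 14.

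The libraries held 24268398 to 28491926 counts each. Levels are given as CPM, counts scaled for sequencing depth with library totals adjusted by TMM. CPM depends on transcript length, for which no value was used here, so levels are compared between groups and not between genes. Vasopressin (Avp) and oxytocin (Oxt) were abundant in every library. The summed level of 7 magnocellular markers was 11540 to 15320 CPM in dehydrated libraries and 7862 to 11300 CPM in euhydrated libraries. Avp and Oxt made up most of it in both groups, with dehydrated means of 8475 and 3394 CPM. Caprin2 and Pdyn were past the threshold and higher. Avp, Oxt, Otp, Sim1 and Pou3f2 did not pass, at log2 fold changes of 0.46, 0.18, 0.07, 0.09 and -0.05. Oligodendrocyte markers, 2 of 8 lower, had sums of 9414 to 12000 and 9836 to 14340 CPM, and those of their precursors, 1 of 5 higher, 298 to 349.8 and 290.3 to 319 CPM, in dehydrated and euhydrated libraries. Over all genes tested, 12.7% passed the threshold (adjusted p below 0.05 in edgeR's quasi-likelihood test with Benjamini-Hochberg adjustment over 15311 genes, called edgeR adjusted p here), with 1192 higher and 750 lower in dehydrated samples. Scaled to library totals alone, 904 were higher and 1173 lower.

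After dehydration some members of the IGF family were higher and others lower. Igfbp5 and Igf1 were lower, Igfbp3 and Igf2r were higher, and the other 6 members did not pass the threshold. All 10 members passed the filter on low counts. Of the 9 members other than Igfbp5, 3 passed the threshold, 2 higher and 1 lower, beside 12.7% of all genes tested (7.79% higher and 4.9% lower). Those 3 and Igfbp5 were the members whose groups did not overlap, as was so for 10.9% of all genes tested. Nothing is read from these shares, since the set was chosen on this comparison. The median log2 fold change over the 10 members was 0.04, and over all genes tested it was -0.0058. In the authors' deposited table the log2 fold changes of Igfbp5, Igfbp3, Igf1 and Igf2r were -0.83, 0.84, -0.54 and 0.23.

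**Figure D1:**
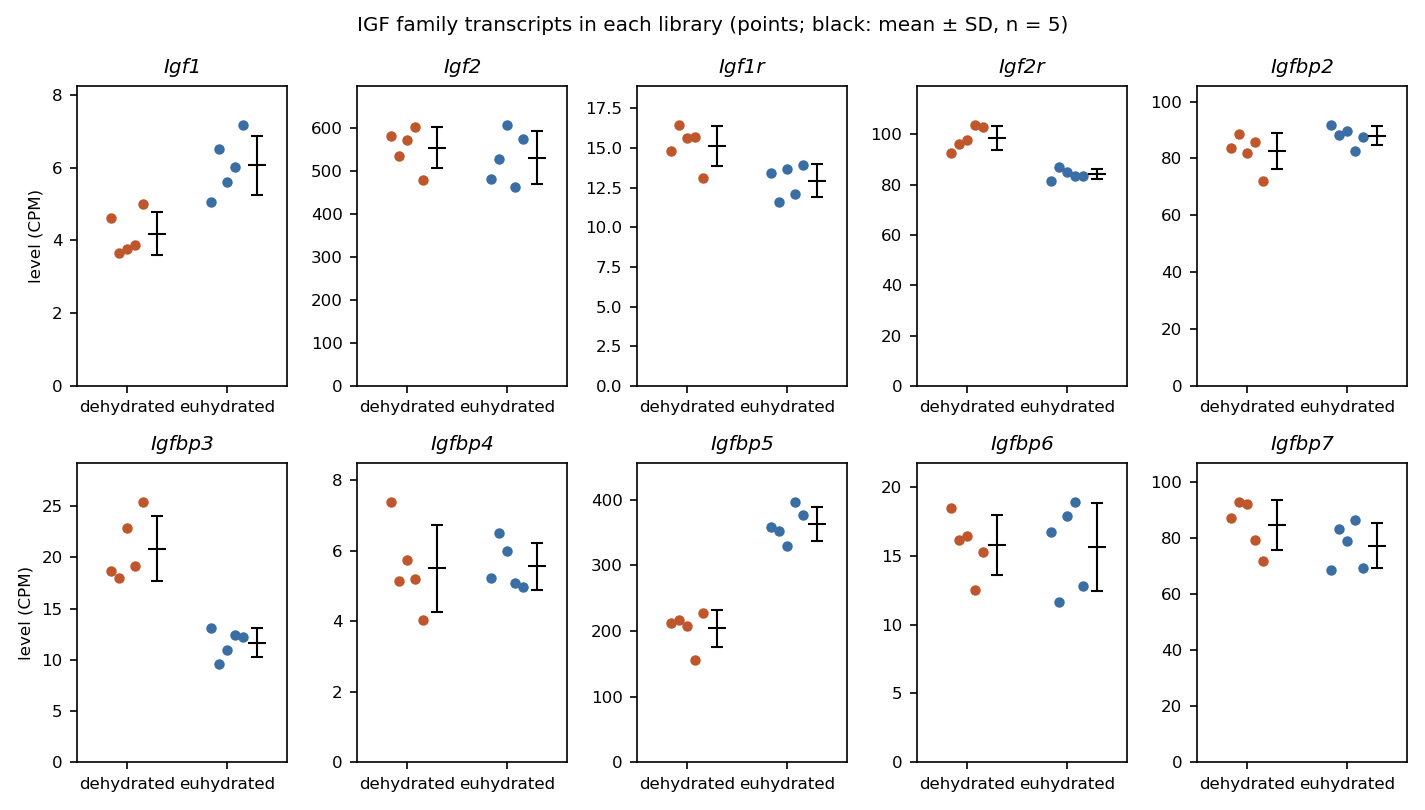
Level (CPM) of the 10 IGF family transcripts in each of 5 dehydrated (orange) and 5 euhydrated (blue) libraries, on axes that start at 0, with the mean and SD in black. The groups are apart for Igf1, Igf2r, Igfbp3 and Igfbp5 and overlap for the other 6 genes.

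Of the ligands, Igf1 fell and Igf2 did not pass the threshold. Igf1, a growth factor made in the brain by neurones and glia as well as reaching it from the blood, stood at 4.62, 3.66, 3.77, 3.88 and 5 CPM in dehydrated libraries 1 to 5, against 5.06, 6.51, 5.615, 6.01 and 7.17 CPM in euhydrated libraries 1 to 5. Every dehydrated library was below every euhydrated one, but by little at the border, between dehydrated 5 and euhydrated 1. Igf1 averaged 4.19 ± 0.59 CPM in dehydrated and 6.07 ± 0.81 CPM in euhydrated samples (SD, n = 5 each), and fell by 0.54 ± 0.12 (SE) on the log2 scale with an edgeR adjusted p of 0.00788. It rested on few reads, 92 to 127 per dehydrated library and 140 to 198 per euhydrated library. Adding erythrocyte marker level as a covariate ended the call (log2 fold change -0.50 ± 0.17, SE; edgeR adjusted p = 0.11), and all alternatives together spanned 0.00103 to 0.11. In bulk tissue, fewer cells of a type and less RNA per cell cannot be told apart, for this gene and for all that follow.

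Markers of microglia, cells known to make Igf1, are set beside that fall. All 8 microglial markers were tested and 0 passed the threshold in edgeR, while DESeq2 called 1. In edgeR 4 had an unadjusted p under 0.05, all with the lower mean in dehydrated samples. They were P2ry12, Cx3cr1, Aif1 and Csf1r, at log2 fold changes of -0.28, -0.23, -0.18 and -0.10. Itgam and C1qb also had the lower mean, at -0.10 and -0.03. Tmem119 and C1qa had the higher mean in dehydrated samples, at log2 fold changes of 0.10 and 0.08. The share of all genes with such an unadjusted p was not taken, so these counts are not weighed, here or below. The summed level of the 8 markers was 239.9 to 273.5 CPM in dehydrated and 254.9 to 295.3 CPM in euhydrated libraries, with overlap. Of 8 astrocyte markers 0 passed in edgeR or in DESeq2, and 0 had an unadjusted p under 0.05; their sums were 5844 to 6952 CPM in dehydrated and 5880 to 7046 CPM in euhydrated libraries. The erythrocyte sum, over 7 markers, was 590.3 to 1428 CPM in dehydrated and 1027 to 2058 CPM in euhydrated libraries. Of these markers 1 was past the threshold and lower, and 3 had an unadjusted p under 0.05. All 7 had the lower mean in dehydrated samples (log2 fold changes of -0.66 to -1.52), so the covariate built from them partly follows the group. The part of microglia in the fall of Igf1 was not tested.

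Igf2, the ligand that both receptors bind, had by far more reads than Igf1, 11984 to 15922 per dehydrated library and 12113 to 17365 per euhydrated library. Its levels were 579.7, 535, 570.3, 601 and 479 CPM in dehydrated libraries 1 to 5 and 481, 528, 606, 461 and 574 CPM in euhydrated libraries 1 to 5. The groups covered much the same range. Means were 553 ± 47.6 CPM in dehydrated and 529.8 ± 61.0 CPM in euhydrated samples (SD, n = 5 each), a difference of 0.06 ± 0.09 (SE) on the log2 scale with an edgeR adjusted p of 0.71. The coefficient of variation of Igf2 was 8.61% in dehydrated and 11.5% in euhydrated samples, within the range of the other members. In the adult brain Igf2 is known chiefly from the meninges and choroid plexus, and the pia lies against the supraoptic nucleus. The summed level of leptomeningeal fibroblast markers, 10 matched of 10 listed, was 562.1 to 693.8 CPM in dehydrated and 501.8 to 637.1 CPM in euhydrated libraries, with Ogn at 1 read in all. Col1a2 was matched by gene number only, to an identifier with no reads, and its level is not read here. Of the 8 tested, 0 passed in edgeR, 2 had an unadjusted p under 0.05 and DESeq2 called 1. Lum had the lower mean in dehydrated samples (log2 fold change -0.11), and the rest of the 8 had the higher mean (0.08 to 0.39). Dehydrated 5 had the least Igf2 and the smallest of these sums in its group, and euhydrated 3 had the most Igf2 and the largest sum in its group. Euhydrated 5, in contrast, had the smallest sum of its group and more Igf2 than euhydrated 1, 2 and 4. Dehydrated 4 had the most Igf2 of its group, with a sum of 631.5 CPM, below those of dehydrated 1, 2 and 3. Dehydrated 2, with a sum of 691.2 CPM, had less Igf2 than dehydrated 1, 3 and 4. The part of these cells in the level of Igf2 was not tested. Choroid plexus and ependymal markers, of which 1 of 6 tested was lower, were at sums of 11.84 to 22.13 and 14.67 to 33.9 CPM in dehydrated and euhydrated libraries.

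Of the receptors, Igf2r rose and Igf1r lay just outside the threshold, at nearly the same fold change. Igf2r, the mannose 6-phosphate receptor that clears IGF2, had 92.5, 96.2, 97.5, 103.6 and 102.9 CPM in dehydrated libraries 1 to 5, against 81.5, 87.0, 85.1, 83.5 and 83.4 CPM in euhydrated libraries 1 to 5. All dehydrated libraries were above all euhydrated ones. The averages were 98.5 ± 4.68 CPM in dehydrated and 84.1 ± 2.04 CPM in euhydrated samples (SD, n = 5 each), a rise of 0.23 ± 0.04 (SE) on the log2 scale with an edgeR adjusted p of 0.000654. The fold change was small. Igf2r varied least of all members within the euhydrated group, with a coefficient of variation of 2.43% against 2.07% from counting error. In dehydrated samples these were 4.75% and 1.99%. With the erythrocyte covariate the log2 fold change of Igf2r was 0.18 ± 0.05 (SE; edgeR adjusted p = 0.0443, the highest over the alternatives).

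Igf1r, the signalling receptor, had 14.8, 16.4, 15.6, 15.7 and 13.1 CPM in dehydrated libraries 1 to 5, against 13.4, 11.6, 13.7, 12.1 and 13.9 CPM in euhydrated libraries 1 to 5. Only dehydrated 5 fell within the euhydrated range. The groups differed by 0.22 ± 0.07 (SE) on the log2 scale (edgeR adjusted p = 0.0607), with 15.11 ± 1.278 CPM in dehydrated and 12.9 ± 1.04 CPM in euhydrated samples (SD, n = 5 each). It passed without dehydrated 5 (log2 fold change 0.27, edgeR adjusted p = 0.0235) and in DESeq2 (adjusted p = 0.0467), and ran from 0.0235 to 0.157 over the alternatives. Whether the 2 receptors differed in their change was not tested.

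**Figure D2:**
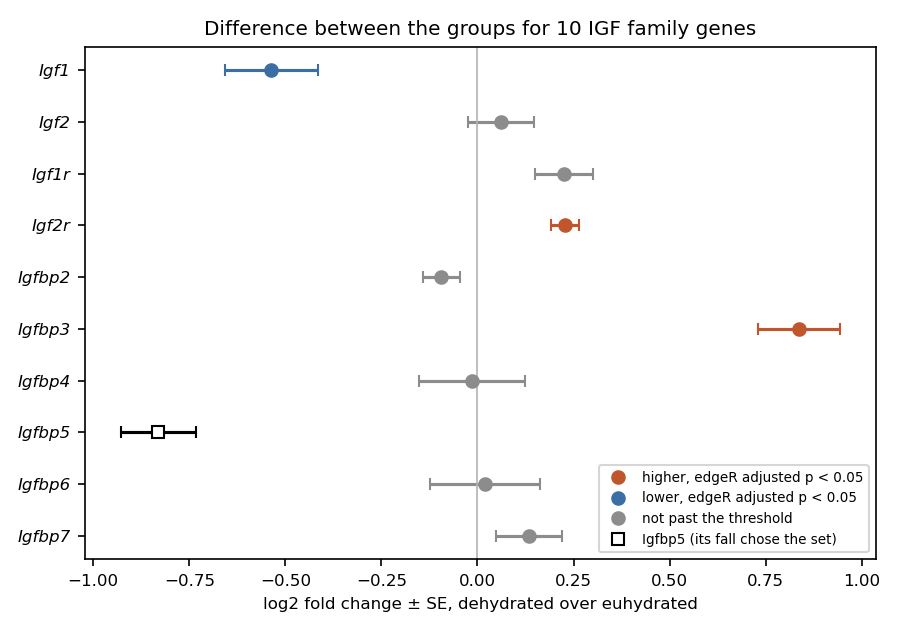
Log2 fold change of dehydrated over euhydrated samples with its SE for the 10 members, from the edgeR fit over all genes tested. Igfbp3 (0.84) and Igfbp5 (-0.83, open square, with no test because its fall chose the set) lie farthest from 0 on opposite sides, and Igf1r and Igf2r lie at 0.22 and 0.23.

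Of the binding proteins, Igfbp5 was lower and Igfbp3 rose by almost the same factor. Igfbp5, a secreted protein that binds IGFs and extracellular matrix, stood at 212.9, 218, 207, 156 and 227 CPM in dehydrated libraries 1 to 5, against 358, 353, 329.7, 397 and 377 CPM in euhydrated libraries 1 to 5. The highest dehydrated library lay far below the lowest euhydrated one, and dehydrated 4 stood apart below the rest of its group. The levels averaged 204 ± 27.97 CPM in dehydrated and 363 ± 25.5 CPM in euhydrated samples (SD, n = 5 each), a log2 fold change of -0.83 ± 0.10 (SE) or 1.78-fold lower. Without dehydrated 4 the log2 fold change was -0.75 ± 0.05 (SE), and over all libraries left out in turn it ran from -0.87 to -0.75. Each library gave Igfbp5 3695 to 10433 reads, so counting error, at 1.38% in dehydrated and 0.999% in euhydrated samples, was well below the coefficients of variation of 13.7% and 7.02%.

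Igfbp3, the main IGF carrier of the blood, where it forms a complex with IGF and an acid-labile subunit, had 18.7, 18.0, 22.8, 19.2 and 25.4 CPM in dehydrated libraries 1 to 5, against 13.1, 9.59, 10.9, 12.4 and 12.3 CPM in euhydrated libraries 1 to 5. The groups did not overlap, and dehydrated 5 and 3 were the highest. Igfbp3 averaged 20.8 ± 3.18 CPM in dehydrated and 11.7 ± 1.41 CPM in euhydrated samples (SD, n = 5 each) and rose 1.79-fold, by 0.84 ± 0.11 (SE) on the log2 scale (edgeR adjusted p = 0.000173). It stayed past the threshold under every alternative run, with adjusted p from 3.58e-12 to 0.00959. Endothelial markers, set beside it because vessels are a known source of Igfbp3, had sums of 365.9 to 415.7 CPM in dehydrated and 377.1 to 396.3 CPM in euhydrated libraries, and 1 of 7 tested, Kdr, was higher. Another 2 had an unadjusted p under 0.05 without passing, Cldn5 with a log2 fold change of 0.11 and Cdh5 with -0.11. Mural cell markers had sums of 748.5 to 1080 CPM in dehydrated and 714.3 to 947.8 CPM in euhydrated libraries. Of these 8 markers 0 passed in edgeR, with 1 at an unadjusted p under 0.05 and 1 called by DESeq2. All 8 had the higher mean in dehydrated samples, at log2 fold changes of 0.06 (Rgs5) to 0.28 (Des). The part of these cells in the rise was not tested.

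Igfbp2, Igfbp4, Igfbp6 and Igfbp7 did not pass the threshold, and their groups overlapped. Igfbp2, a binding protein of glia and meninges with a preference for IGF2, stood at 72.1 to 88.7 CPM (median 83.7) in dehydrated and 82.8 to 91.7 CPM (median 88.1) in euhydrated libraries (difference of -0.09 ± 0.05 on the log2 scale, SE; edgeR adjusted p = 0.236). Dehydrated 5 was the lowest library. Igfbp7, a matrix protein made by vessels, stood at 71.8 to 92.8 CPM (median 87.0) in dehydrated and 68.4 to 86.2 CPM (median 78.8) in euhydrated libraries (log2 fold change 0.13 ± 0.09, SE; edgeR adjusted p = 0.361). With the erythrocyte covariate the log2 fold change of Igfbp7 was 0.30 ± 0.08 (SE; edgeR adjusted p = 0.055), still outside the threshold.

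Igfbp4, which inhibits IGF action until PAPP-A cleaves it, stood at 4.04 to 7.39 CPM (median 5.18) in dehydrated and 4.96 to 6.51 CPM (median 5.24) in euhydrated libraries. The difference on the log2 scale was -0.01 ± 0.14 (SE; edgeR adjusted p = 0.963), and its coefficient of variation in dehydrated samples, 22.3%, was the highest of the 10 members. Igfbp6, which prefers IGF2 over IGF1, stood at 12.5 to 18.5 CPM (median 16.1) in dehydrated and 11.7 to 18.9 CPM (median 16.7) in euhydrated libraries (log2 fold change 0.02 ± 0.14, SE; edgeR adjusted p = 0.954). For both genes the groups were indistinguishable at this spread, and the sign of so small a difference turned when single libraries were left out.

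Since Igfbp5 gave the most reads of the 6 binding proteins in every library, its lower level moved their sum. The summed level was 413 ± 32.1 CPM in dehydrated and 561 ± 25.8 CPM in euhydrated samples (SD, n = 5 each), and the ranges of 358 to 438 and 533 to 602 CPM did not overlap. Without Igfbp5 the sums were 209 ± 13.6 and 197.9 ± 7.29 CPM. As a share of the reads of these 6 genes, which depends on transcript length and is compared between groups only, Igfbp5 took 49.2% ± 3.94 in dehydrated and 64.7% ± 1.92 in euhydrated samples (SD, n = 5 each). Igfbp3 took 5.06% ± 0.82 and 2.08% ± 0.229. For each Igfbp3 read there were 11.4, 12.1, 9.07, 8.12 and 8.92 Igfbp5 reads in dehydrated libraries 1 to 5, against 27.3, 36.8, 30.2, 31.9 and 30.7 in euhydrated libraries 1 to 5. These sums, shares and ratios carry the values of Igfbp5 that chose the set and were not tested.

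**Figure D3:**
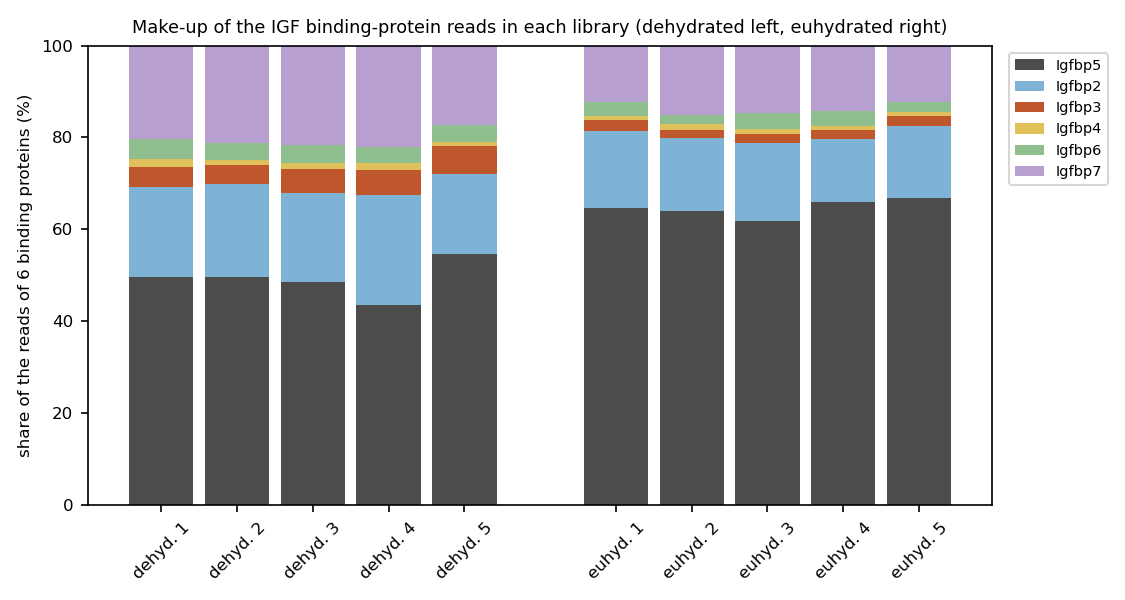
Share (%) of each of 6 genes in the summed reads of the IGF binding proteins, 1 bar per library, dehydrated left and euhydrated right. The Igfbp5 share lies between 43.5% and 54.6% in dehydrated libraries and between 61.9% and 66.9% in euhydrated libraries.

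The genes whose pattern over the 10 libraries came closest to that of Igfbp5 were Rxrg, Dact1, Trappc6a, Dbp and Fam227a. Likeness was the root-mean-square difference of log2 CPM, each gene centred on its euhydrated mean, over 11071 named genes with a mean of at least 5 CPM. The nearest, Rxrg, a retinoid X receptor, differed by 0.202, at 12.2 ± 1.67 CPM in dehydrated and 19.8 ± 1.16 CPM in euhydrated samples (SD, n = 5 each). Dact1, a modulator of Wnt signalling, differed by 0.246, Trappc6a, a vesicle tethering subunit, by 0.252, Dbp, a circadian transcription factor, by 0.254, and Fam227a by 0.28. These genes share the lower level in dehydrated libraries by construction. In dehydrated 4, where Igfbp5 was lowest, none of the 5 was as far below its euhydrated mean.

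**Figure D4:**
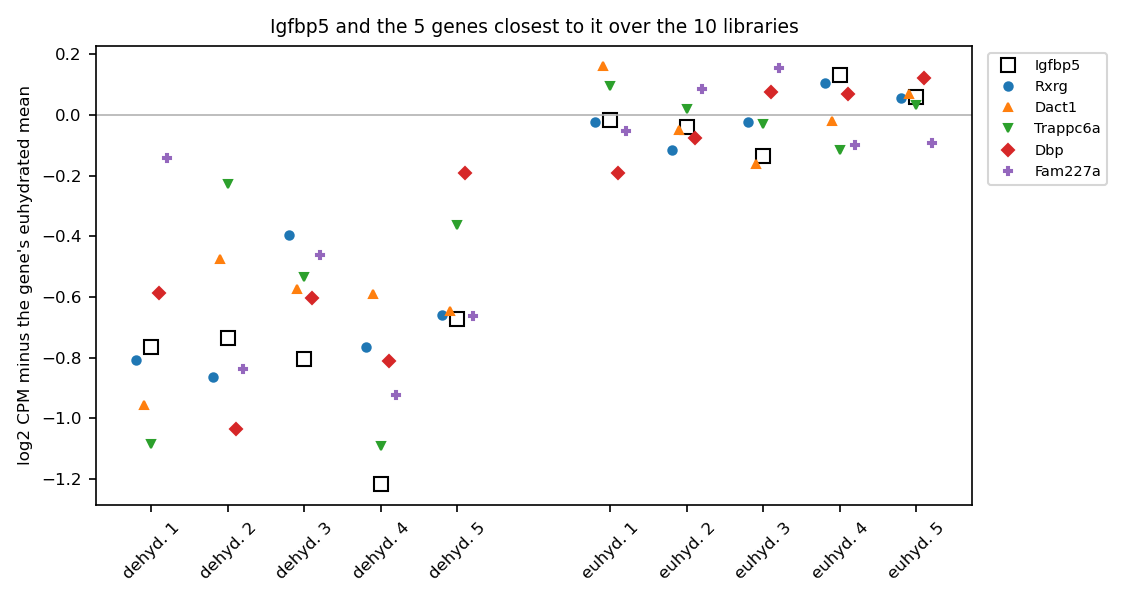
Log2 CPM minus the euhydrated mean of each gene in the 10 libraries, dehydrated left and euhydrated right, for Igfbp5 (open squares) and the 5 genes closest to it. Igfbp5 is lowest in dehydrated 4, below the other genes there.

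The genes around the family were listed by role, 70 in all, of which 69 were matched and 63 tested. Of these 9 rose and 1 fell, 15.9% against 12.7% of all genes tested, and 53 did not pass. The first list held insulin, its receptors, other IGF binding proteins and secreted or transmembrane proteins with an IGFBP-type domain. Of 14 tested 4 rose and 1 fell, 35.7% against 12.7% of all genes tested. The median log2 fold change was 0.18 against -0.0058 over all genes tested. Nothing is read from this share or median, since the lists were chosen with earlier results of these data known. Htra1 is counted here and again among the proteases. Ccn2, a matrix-associated growth factor (connective tissue growth factor), had 39.6, 31.5, 41.3, 31.5 and 24.5 CPM in dehydrated libraries 1 to 5, against 20.02, 14.5, 19.4, 19.4 and 13.1 CPM in euhydrated libraries 1 to 5. Every dehydrated library was above every euhydrated one, and dehydrated 5 and euhydrated 5 were the lowest of their groups. Ccn2 rose 1.95-fold, by 0.96 ± 0.17 (SE) on the log2 scale (edgeR adjusted p = 0.0063, at most 0.0349 over the alternatives).

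Crim1, a transmembrane protein with an IGFBP-type domain that binds bone morphogenetic proteins, was the gene of this list that fell. It had 44.2 ± 4.38 CPM in dehydrated and 57.6 ± 7.35 CPM in euhydrated samples (SD, n = 5 each). The fall was 0.38 ± 0.09 (SE) on the log2 scale (edgeR adjusted p = 0.0159, at most 0.0453 over the alternatives). Its groups were apart by little, with the highest dehydrated library at 51.46 CPM and the lowest euhydrated one at 51.96 CPM. Htra3, a secreted serine protease, rose 1.2-fold (edgeR adjusted p = 0.00459), with a log2 fold change of 0.26 ± 0.05 (SE). With the erythrocyte covariate the log2 fold change stayed at 0.26, but the SE grew to 0.07 and the edgeR adjusted p was 0.0564 (lowest over the alternatives 0.000436). Insr, the insulin receptor, named after its values were seen because the rule took 4 genes per list, stood at 58.9 ± 3.39 CPM in dehydrated and 52.0 ± 3.80 CPM in euhydrated samples (log2 fold change 0.18 ± 0.05, SE; edgeR adjusted p = 0.039). That call did not stand without any one of dehydrated 1, 2, 4 and 5 and euhydrated 1, 2, 3 and 4 (0.0525 to 0.0911), nor when scaled to library totals (0.0801) or with the erythrocyte covariate (0.171, where the fold was no smaller, 0.19 ± 0.07 on the log2 scale, SE), while the lowest value over the alternatives was 0.0176. Insulin itself was at or near 0, with no Ins1 read in any library, which allows a level of up to 0.105 to 0.124 CPM, depending on the library (3 counts, counting error only). Igfbp1, the neighbour of Igfbp3, gave 2 to 9 reads per dehydrated and 0 to 3 per euhydrated library and was too low to be tested, as were Ins2 and Igfals.

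Among proteases that cleave binding proteins and the stanniocalcins that inhibit PAPP-A, 1 of 7 rose, 14.3% against 12.7% of all genes tested, and the other 6 did not pass, although 4 of the 7 had an unadjusted p under 0.05. Htra1, a serine protease that carries an IGFBP-type domain and is known to cleave IGFBP5, had 77.9, 88.0, 75.7, 85.8 and 72.0 CPM in dehydrated libraries 1 to 5, against 52.98, 57.5, 49.97, 49.1 and 45.8 CPM in euhydrated libraries 1 to 5. The groups were well apart. Htra1 averaged 79.9 ± 6.77 CPM in dehydrated and 51.1 ± 4.43 CPM in euhydrated samples (SD, n = 5 each) and rose 1.56-fold, by 0.64 ± 0.07 (SE) on the log2 scale with an edgeR adjusted p of 2.38e-05 (at most 0.00134 over the alternatives). Stc2, Stc1 and Adam9 also had an unadjusted p under 0.05. Their log2 fold changes were 0.51 ± 0.18, -0.45 ± 0.18 and 0.08 ± 0.03 (SE; edgeR adjusted p = 0.08, 0.141 and 0.161). Stc2 passed without euhydrated 1 (edgeR adjusted p = 0.0422). Pappa, which encodes PAPP-A, was not among the 4. Its groups did not overlap, but it did not pass (log2 fold change 0.25 ± 0.13, SE; edgeR adjusted p = 0.216).

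Of the IGF2 mRNA-binding proteins only Igf2bp2 was high enough to be tested, and it rose. It had 3.68, 3.62, 3.44, 3.83 and 3.16 CPM in dehydrated libraries 1 to 5, against 1.88, 1.503, 1.604, 2.36 and 2.46 CPM in euhydrated libraries 1 to 5. The groups did not overlap. The rise was 1.81-fold, 0.85 ± 0.15 (SE) on the log2 scale (edgeR adjusted p = 0.00133). Igf2bp1 gave 10 reads in all dehydrated and 6 in all euhydrated libraries, and Igf2bp3 gave 42 and 40. None of 6 genes of growth hormone receptor signalling, which drives Igf1 in the liver, passed in edgeR or in DESeq2, and 1 had an unadjusted p under 0.05. The 2 with the most reads, Stat5b and Jak2, had log2 fold changes of 0.06 ± 0.04 and -0.04 ± 0.04 (SE; edgeR adjusted p = 0.41 and 0.643).

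Below the receptor, 4 of 36 genes of the IRS, SHC, PI3K, AKT, mTOR and FOXO list rose and 32 did not pass, a share of 11.1% against 12.7% of all genes tested. Eif4ebp1, the translation repressor that mTOR phosphorylates, rose most, with 13.1 ± 0.968 CPM in dehydrated and 7.72 ± 1.00 CPM in euhydrated samples (SD, n = 5 each), 1.7-fold or 0.77 ± 0.09 (SE) on the log2 scale (edgeR adjusted p = 3.69e-05). Its dehydrated libraries held 13.2, 12.4, 14.3, 13.8 and 12.0 CPM, all above the 7.66, 7.16, 8.16, 9.13 and 6.49 CPM of the euhydrated libraries.

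The IRS and SHC adaptors dock on the activated receptor. Irs2 rose 1.12-fold, with 84.4 ± 1.38 CPM in dehydrated and 75.7 ± 2.25 CPM in euhydrated samples (SD, n = 5 each). Its edgeR adjusted p was 0.00421 and at most 0.0414 over the alternatives. Irs1 differed by -0.11 ± 0.08 (SE) on the log2 scale and did not pass (edgeR adjusted p = 0.383). Shc1 rose 1.2-fold, by 0.26 ± 0.07 (SE) on the log2 scale, with overlapping groups (edgeR adjusted p = 0.0205), but did not pass without dehydrated 1, dehydrated 4 or euhydrated 4 (0.0505 to 0.0555) or with the erythrocyte covariate (0.152; lowest over the alternatives 0.00613). The log2 fold change with the covariate was 0.25 ± 0.09 (SE). Rheb, the small GTPase that activates mTOR, rose 1.1-fold (edgeR adjusted p = 0.00539), by 0.14 ± 0.03 (SE) on the log2 scale. With the erythrocyte covariate, and under no other alternative, it did not pass (0.146; lowest 0.000419), at a log2 fold change of 0.11 ± 0.04 (SE). Pik3ca, Akt1, Akt2, Mtor, Foxo1 and Foxo3 were among those that did not pass.

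**Figure D5:**
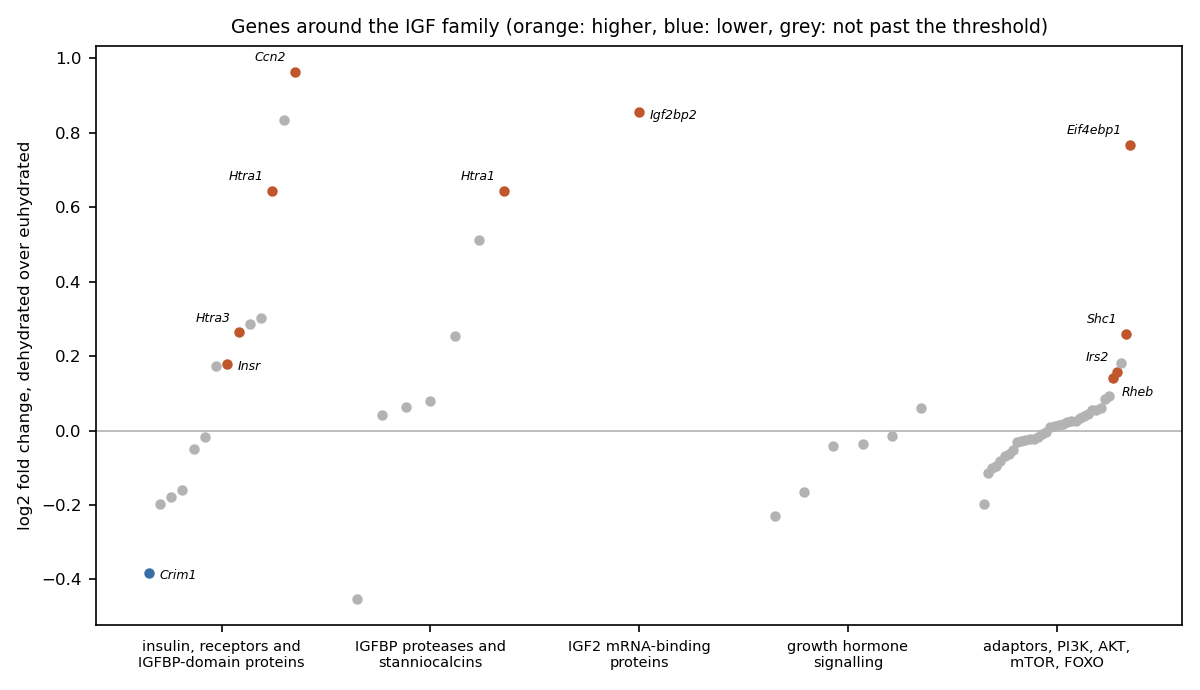
Log2 fold change of dehydrated over euhydrated samples for the tested genes of 5 lists around the IGF family, 1 point per gene, with Htra1 in both the first and the second list. Genes past the threshold are named: 9 are higher and 1, Crim1, is lower.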

How the data were processed

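The authors deposited raw counts per Ensembl gene for 10 libraries, as whole numbers with no normalisation, per the file headers. The submitters' processing notes name STAR, featureCounts, CASAVA, FastQC and DESeq2 1.28.1, and no source used here gives the build, annotation or strand setting. The authors also deposited log2 fold changes with standard errors. Symbols came from their table, or by gene number through RefSeq (GRCr8).

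Columns were tied to samples by name. For 3 euhydrated columns the labels' numbers differ, so only their group is known; libraries carry the column's number. No pair of libraries within a group agreed within sampling noise (chi-square over its degrees of freedom, 4.86 to 12.1), so all were counted as separate libraries. The check cannot show that each came from different animals.

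Genes kept by filterByExpr (15311) were scaled by TMM and compared by the robust quasi-likelihood test of edgeR 4.0.16 (R 4.3.3), without covariates. An SE is the fold change over the root of the F statistic. Log2 CPM used a prior count of 2. On simulated data of this comparison (15208 genes tested) the fit recovered 60% of genes changed 1.25-fold, 84% at 1.5-fold and 90% at 2-fold, with 5.17% false among its calls. Only 50 genes were changed at each fold, a far smaller part of all genes than the 12.7% that passed in the data. Recovery in the data may therefore differ.

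Members, lists and tests were chosen with earlier results of these data known. Genes named by rule were the members and the 5 genes most like Igfbp5. Each list gave up to 4 genes past the threshold with the largest change, or the 2 of highest CPM where none passed. Other genes of the lists, among them Insr, Pappa, Stc1, Stc2, Adam9, Irs1 and Ccn1, and single markers are named outside this rule. Of 10 marker lists, each result is printed once. Irs4, Pecam1 and Foxj1 were not analysed here. Alternatives were DESeq2 1.42.0, limma-voom (limma 3.58.1), 2 scalings, 2 filters, 2 replicate blocks, an erythrocyte covariate and each library left out.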

Additional observations from a re-analysis of the deposited data

Results flagged for a closer look

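Values were looked at for a library far from the other 4 of its group, over 70 groups of 5, where chance flags about 5% of groups. Igfbp5 in dehydrated 4, at 156 CPM against 207 to 227 CPM in the other dehydrated libraries, stood apart by its gap over the range of the group (0.722). The summed level of the 6 binding proteins in the same library, 358 CPM against 416 to 438 CPM, stood apart for the same gene (0.719). Htra3 in euhydrated 5, at 18.5 CPM against 21.1 to 22.1 CPM in the other euhydrated libraries, stood apart below its group (0.737).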

How the results depend on the processing

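Of the 9 members other than Igfbp5, 3 passed the threshold, between 2 and 4 over 19 alternatives and 3 to 4 over the libraries left out in turn. Igf2r and Igfbp3 passed in all 19, with the highest edgeR adjusted p, 0.0443 and 0.00959, under the erythrocyte covariate. Igfbp5 kept its direction with log2 fold changes of -0.87 to -0.74. With the erythrocyte covariate, whose markers all had the lower mean in dehydrated samples, 784 genes passed in place of 1942, and 6 of the wider lists in place of 10. Igf1 did not pass with it, at a log2 fold change of -0.50 against -0.54. The cause was not tested. Leaving out 1 library gave 1494 to 1756 genes and 8 to 10 of the wider lists. The small difference of Igfbp4 changed sign with the erythrocyte covariate (0.13), and over the libraries left out it ran from -0.147 to 0.0771. That of Igfbp6 changed sign scaled to library totals (-0.0084), and over the libraries left out ran from -0.0696 to 0.0985. Over all genes, samples with the same number showed little shared deviation (correlations of -0.0682 to 0.141). This cannot exclude a pairing seen in few genes, and whether the numbers pair the samples is not known. Choroid plexus and ependymal sums, for example, were highest at numbers 3 and 4 in both groups. With a replicate block by column number, 1956 genes, 3 of these 9 members and 11 wider genes passed. Ccn1 passed under no other setting (log2 fold change 0.78, edgeR adjusted p = 0.00532, against 0.238 without the block). With a replicate block on the numbers that labels and columns share, 1861, 3 and 10 passed. Igf1, Igf1r, Igfbp3, Igfbp4 and Igfbp6 rest on at most 636 reads per library, but the part of counting error in their spread differed. In dehydrated samples it was 9.62% beside a coefficient of variation of 14.1% for Igf1, and 4.32% beside 15.3% for Igfbp3. Igf2r, with more reads, had 1.99% beside 4.75% in dehydrated samples and 2.07% beside 2.43% in euhydrated samples.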
